A study of Homo sapiens with 24 samples.

Results

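Axon guidance ligands and receptors were followed in LNCaP:C42 and 22Rv1 prostate cancer cells given a synthetic androgen or depleted of the RNA methyltransferase METTL3. The 60 genes were listed by family name, without a threshold on any measured value, but the set was proposed with earlier results of these data known. They were 20 semaphorins, 9 plexins, 2 neuropilins, 2 Robo receptors, 3 Slits, 2 netrins, 6 netrin receptors, 8 Eph receptors and 8 ephrins. Not every family was listed in full. Some Robo, netrin and Eph genes, among them ROBO3, EPHA5, EPHA8 and EPHA10, were put on a wider list, so statements on these families cover the listed members. All 60 symbols were found among the 60675 genes of the count files. LNCaP:C42 is a castrate resistant line derived from LNCaP that remains sensitive to the anti-androgen enzalutamide, whereas 22Rv1 is resistant to enzalutamide. Cells of each line were transfected with a pool of non-targeting siRNAs (siSCR) or a pool against METTL3 (siMETTL3). They were transfected again 48 h later and received 1 nM R1881, a synthetic androgen, or ethanol vehicle for 72 h in phenol red-free medium with charcoal-stripped serum, which every group shared. Each of the 8 combinations of line, siRNA pool and treatment had 3 libraries, 24 in all. A single pool was used against METTL3, so loss of METTL3 and any other action of that pool cannot be told apart.

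Semaphorins signal through plexins, and most secreted semaphorins also need a neuropilin co-receptor. Slits bind Robo receptors, netrins bind DCC, neogenin (NEO1) and the UNC5 receptors, and Eph receptors are tyrosine kinases that recognise ephrins on the surface of neighbouring cells. These systems were first described as cues that attract or repel growing axons, and in epithelia and tumours they act in adhesion, migration and vessel growth. Androgens drive the growth of most prostate cancers.

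The libraries held 15716224 to 21306019 counts (median 17671721), so that 3 counts stood for 0.141 to 0.191 CPM (counts scaled to library size). METTL3 was lower with siMETTL3 in all libraries of each of the 4 pairs of groups, by 33.8% and 32.8% in LNCaP:C42 (vehicle and R1881) and by 46.1% and 55.5% in 22Rv1 (two-sided exact permutation p = 0.1 each, the smallest that 3 against 3 libraries allow). Markers of luminal prostate cells were high in both lines (KRT8 331 to 624 CPM as group means), while the basal marker KRT5 was at most 0.0406 CPM and the neuronal marker STMN2 at most 0.0173 CPM. The synaptic vesicle gene SYP was at 0.974 CPM in the lowest LNCaP:C42 group and 110.4 CPM in the highest 22Rv1 group. For 5 libraries the counts stood apart from both others of their group (chi-square per degree of freedom 10.3 to 41.7, against 3.05 to 4.11 between the others). They were siMETTL3 vehicle library 1, siSCR R1881 library 1 and siSCR vehicle library 3 of LNCaP:C42, and siSCR vehicle library 3 and siMETTL3 vehicle library 1 of 22Rv1, and mitochondrial genes took 9.60% of the counts of the first of these against 6.89% and 7.03% in its group. Counts of differentially expressed genes (DEGs) are therefore given with and without these 5. The labels do not say whether the 3 libraries of a group came from separate cultures, so p-values measure only the spread between libraries, which may be technical. In bulk RNA, fewer cells that express a gene and less RNA per cell cannot be told apart.

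In siSCR cells given vehicle, most of these families were represented by a few well expressed members. Levels between genes are given per kilobase (RPKM, the CPM divided by exonic length, mean ± SD, n = 3). In LNCaP:C42 the highest members were the ephrin EFNA1 at 44.5 ± 7.62 RPKM, the plexin PLXNB2 at 42.8 ± 2.63, the ephrin EFNA5 at 25.7 ± 0.487, the secreted semaphorin SEMA3C at 24.996 ± 2.38 and the membrane semaphorin SEMA6A at 20.6 ± 0.776. In 22Rv1 the receptor EPHB3 stood alone at 154 ± 14.8 RPKM, followed by PLXNB2 at 32.6 ± 2.54, SEMA3C at 17.1 ± 2.01 and EFNB2 at 16.5 ± 1.55. SEMA3C and EFNB2 did not differ beyond their spread in 22Rv1, nor did EFNA5 and SEMA3C in LNCaP:C42. Among the listed members, the lines shared their leading semaphorin (SEMA3C) and plexin (PLXNB2) but not their leading Eph receptor or ephrin.

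At 1 RPKM or more, LNCaP:C42 expressed 11 of 20 listed semaphorins, 5 of 9 plexins, 1 of 2 neuropilins, 2 of 6 netrin receptors, 5 of 8 Eph receptors and 7 of 8 ephrins. None of the listed Robo receptors, Slits or netrins reached that level there. In 22Rv1 the same counts were 10 semaphorins, 7 plexins, 0 neuropilins, 3 netrin receptors, 5 Eph receptors and 8 ephrins, with 1 of 2 Robo receptors, 2 of 3 Slits and 0 of 2 netrins. The listed netrins, NTN1 and NTN4, were close to absent. NTN4, the highest in LNCaP:C42, was at 0.0988 ± 0.0522 RPKM, and NTN1 was at 0.0801 ± 0.0514 RPKM in 22Rv1. The receptor side of that system was present through neogenin, which was at 9.20 ± 0.145 RPKM in LNCaP:C42 and 5.43 ± 0.123 RPKM in 22Rv1. Neuropilin 1 (NRP1), a co-receptor for secreted semaphorins and for vascular growth factor, was at 3.65 ± 0.0893 RPKM in LNCaP:C42 and 0.750 ± 0.0668 RPKM in 22Rv1. After the filter on low counts, 46 members could be tested in LNCaP:C42 and 52 in 22Rv1, and 44 in both. SEMA5A, SEMA5B, PLXNA4, SLIT3, UNC5D and DCC passed in neither line, SEMA3A and EPHB6 passed in LNCaP:C42 alone, and SEMA6D, NRP2, ROBO1, ROBO2, SLIT2, NTN1, UNC5C and EPHA4 in 22Rv1 alone.

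**Figure D1:**
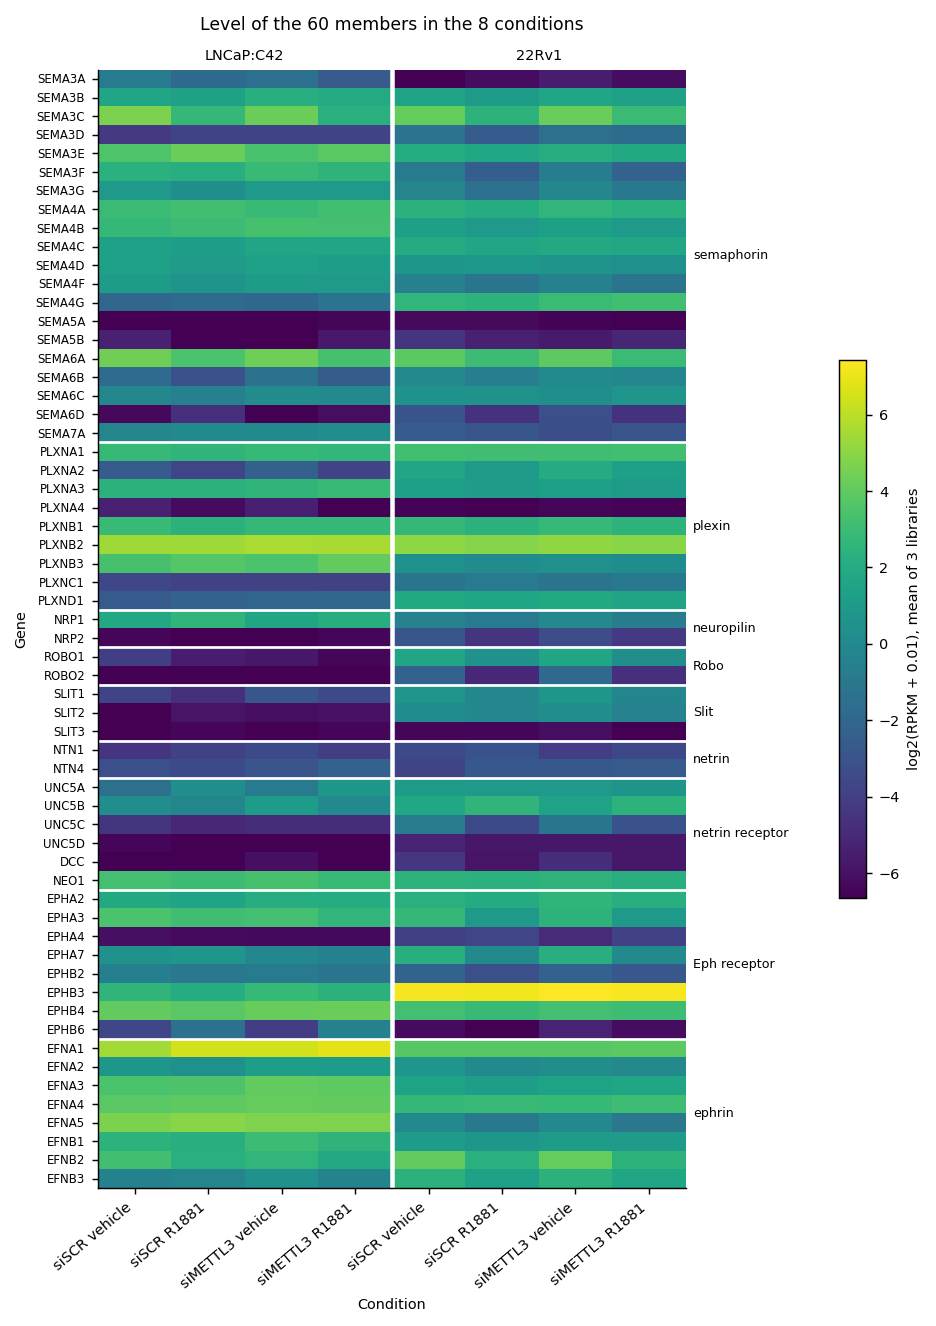
Mean level of each of the 60 genes (rows, by family) in the 8 conditions (columns), as log2(RPKM + 0.01) over 3 libraries on a colour scale. SLIT2, ROBO1, ROBO2 and NRP2 are dark in LNCaP:C42 and lighter in 22Rv1, SEMA3A is the reverse, and EPHB3 is brightest in 22Rv1, at 154 RPKM with siSCR and vehicle.

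The lines differed in most members. With siSCR and vehicle, 43 of the 54 members tested across both lines differed between 22Rv1 and LNCaP:C42 by at least 1.5-fold at an adjusted p under 0.05 (edgeR quasi-likelihood test, Benjamini-Hochberg adjustment over all genes, as throughout), 22 higher and 21 lower in 22Rv1. Over all genes tested the share was 59.2% (31.2% higher and 27.9% lower), and members that passed the filter on low counts only because one of the lines expressed them add to the count by construction. With siSCR and R1881, 40 of 54 differed (18 higher and 22 lower in 22Rv1) against 60.1% of all genes (32.6% and 27.5%). These counts were 42 and 40 without the libraries that stood apart, when 57.1% and 58.2% of all genes passed.

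Both listed Robo receptors and both tested Slits were higher in 22Rv1, but ROBO1, ROBO2 and SLIT2 passed the filter on low counts through that line alone, which fixes their direction. The repellent ligand SLIT2 was at 0, 0 and 0 CPM in the vehicle libraries of LNCaP:C42 and at 11.9, 9.43 and 10.1 CPM in those of 22Rv1. This was 590 counts against 0, so the level was at least 189-fold higher in 22Rv1 (3 counts over the group taken as the floor). Its receptor ROBO2 was undetected in the 12 libraries of LNCaP:C42 and at 3.48, 2.89 and 3.93 CPM in 22Rv1, at least 61.8-fold higher. ROBO1 was at 0.663, 0.645 and 0.347 CPM in LNCaP:C42 and 32.3, 31.9 and 35.2 CPM in 22Rv1 (log2 fold change 5.88 ± 0.21, adjusted p = 5.83e-19). SLIT1 was at 0.718, 0.483 and 0.579 CPM and 16.2, 16.4 and 12.2 CPM (log2 fold change 4.64 ± 0.26, adjusted p = 6.96e-15). For each of these 4 genes every 22Rv1 library was above every LNCaP:C42 library.

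The other receptor families were divided. In 22Rv1 3 Eph receptors were higher and 4 lower (EPHA3, EPHB2, EPHB4 and EPHB6, with log2 fold changes of -0.71, -1.58, -0.81 and -3.93), 3 plexins were higher and 2 lower (PLXNA3 and PLXNB3), and 3 netrin receptors were higher and 1 lower (neogenin). Over all genes 31.2% were higher and 27.9% lower in 22Rv1. EPHB6 had 1 count in 22Rv1, so its fitted value is no measure of size. EPHB6 passed the filter on low counts in LNCaP:C42 alone, and EPHA4, UNC5C, NRP2 and SEMA6D in 22Rv1 alone, which fixes their direction. EPHB3 was at 26.2, 26.2 and 28.2 CPM in LNCaP:C42 and 762, 699 and 627 CPM in 22Rv1 (log2 fold change 4.69 ± 0.12, adjusted p = 3.17e-22). The plexins PLXNA2 (log2 fold change 4.36 ± 0.18, adjusted p = 1.86e-17) and PLXND1 (log2 fold change 4.59 ± 0.19, adjusted p = 1.68e-17) were higher in 22Rv1, as were the netrin receptors UNC5A, UNC5B and UNC5C (log2 fold changes 2.53, 1.53 and 3.93). SEMA4G, a membrane semaphorin, was at 1.27, 1.66 and 0.868 CPM in LNCaP:C42 and 35.6, 30.3 and 31.3 CPM in 22Rv1 (log2 fold change 4.66 ± 0.16, adjusted p = 4.47e-19). NRP2 and SEMA6D were barely detected in LNCaP:C42, with 1 count over the group each, so that 97 and 56 counts in 22Rv1 gave ratios of 93.2 (95% counting interval 16.3 to 3717) and 53.8 (9.27 to 2162). Sums over the neuroendocrine markers were also higher in 22Rv1, at 79.0 to 110.9 CPM against 1.13 to 2.22 CPM over the group means, nearly all of it SYP. Sums over the neuronal markers were 2.39 to 2.70 CPM against 0.400 to 1.23 CPM, in 22Rv1 mostly TUBB3. RBFOX3 was lower in 22Rv1 with siSCR and vehicle (0.351 against 0.812 CPM) and higher with siSCR and R1881 (0.362 against 0.104 CPM). The part of these markers in the differences between the lines was not tested.

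On the LNCaP:C42 side stood the secreted semaphorin SEMA3A, NRP1 and most A-class ephrins. SEMA3A was at 3.87, 4.83 and 5.96 CPM in LNCaP:C42 and 0, 0 and 0 CPM in 22Rv1, that is 263 counts against 0 and at least 91.3-fold higher in LNCaP:C42. SEMA3A passed the filter on low counts in LNCaP:C42 alone, which fixes its direction. EFNA5 was at 149, 143 and 148 CPM in LNCaP:C42 and 5.83, 6.16 and 6.22 CPM in 22Rv1 (log2 fold change -4.59 ± 0.11, adjusted p = 2.49e-22). NRP1 was lower in 22Rv1 (log2 fold change -2.28 ± 0.13, adjusted p = 8.48e-15), as were SEMA3F (-3.21 on the log2 scale), PLXNB3 (-2.91), EFNA3 (-1.93) and EFNA1 (-1.72). Of the 8 ephrins 5 were lower and 2 higher in 22Rv1 (27.9% and 31.2% of all genes), the higher ones being EFNB2 and EFNB3. Without LNCaP:C42 siSCR vehicle library 3, the vehicle differences of SEMA4C (0.55), SEMA4D (-0.56) and SEMA6C (0.47) fell short of 1.5-fold, as did that of SEMA4C without 22Rv1 library 1 (0.50) and that of SEMA4D without 22Rv1 library 3 (-0.52).

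With all libraries, R1881 altered more of these genes within a line than METTL3 knockdown did, and in 22Rv1 nearly all of them were reduced. With siSCR, R1881 altered 21 of the 52 members tested in 22Rv1 (1 up-regulated and 20 reduced), against 13.8% of all genes (4.19% up-regulated and 9.64% reduced). With siMETTL3 it altered 19 of 52 (1 up-regulated and 18 reduced), against 13.5% (4.18% and 9.29%). These counts came from separate libraries of the same line, and 16 genes were reduced in both. In LNCaP:C42 fewer members were called and they moved in both directions. R1881 altered 11 of 46 members with siSCR (5 up-regulated and 6 reduced) against 15.1% of all genes (7.39% and 7.72%), and 9 of 46 with siMETTL3 (3 up-regulated and 6 reduced) against 10.6% (5.09% and 5.54%). The share of members called in LNCaP:C42 was 23.9% and 19.6%, and in 22Rv1 40.4% and 36.5%.

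Scaling by library size alone, which shifted the median of all genes by -0.12 on the log2 scale in the siSCR comparison of LNCaP:C42, gave 4 up-regulated and 11 reduced there and 2 and 7 with siMETTL3. Without the libraries that stood apart the counts were 14 and 10 in LNCaP:C42 (18.4% and 11.7% of all genes) and 22 and 20 in 22Rv1 (16.2% and 13.6%). Knockdown with R1881 then altered 12 in LNCaP:C42 (11.7% of all genes). That lies between the 14 and 10 for R1881, so R1881 did not alter more members in every comparison there. The median log2 fold change over the tested members was -0.38 and -0.34 in 22Rv1 (siSCR and siMETTL3) and -0.22 and -0.06 in LNCaP:C42, and over all genes it lay between -0.03 and 0.00 in each. For every member called in these 4 comparisons, the R1881 and vehicle libraries did not overlap. The calls rest on the same libraries and the share over all called genes was not taken, so this is no separate support. Over the 4 comparisons 29 members were called at least once and 31 in none, and these 31 include the 6 that were tested in neither line. Shares of all genes were not taken for counts over several comparisons, such as genes reduced under both pools or in all 4 comparisons.

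**Figure D2:**
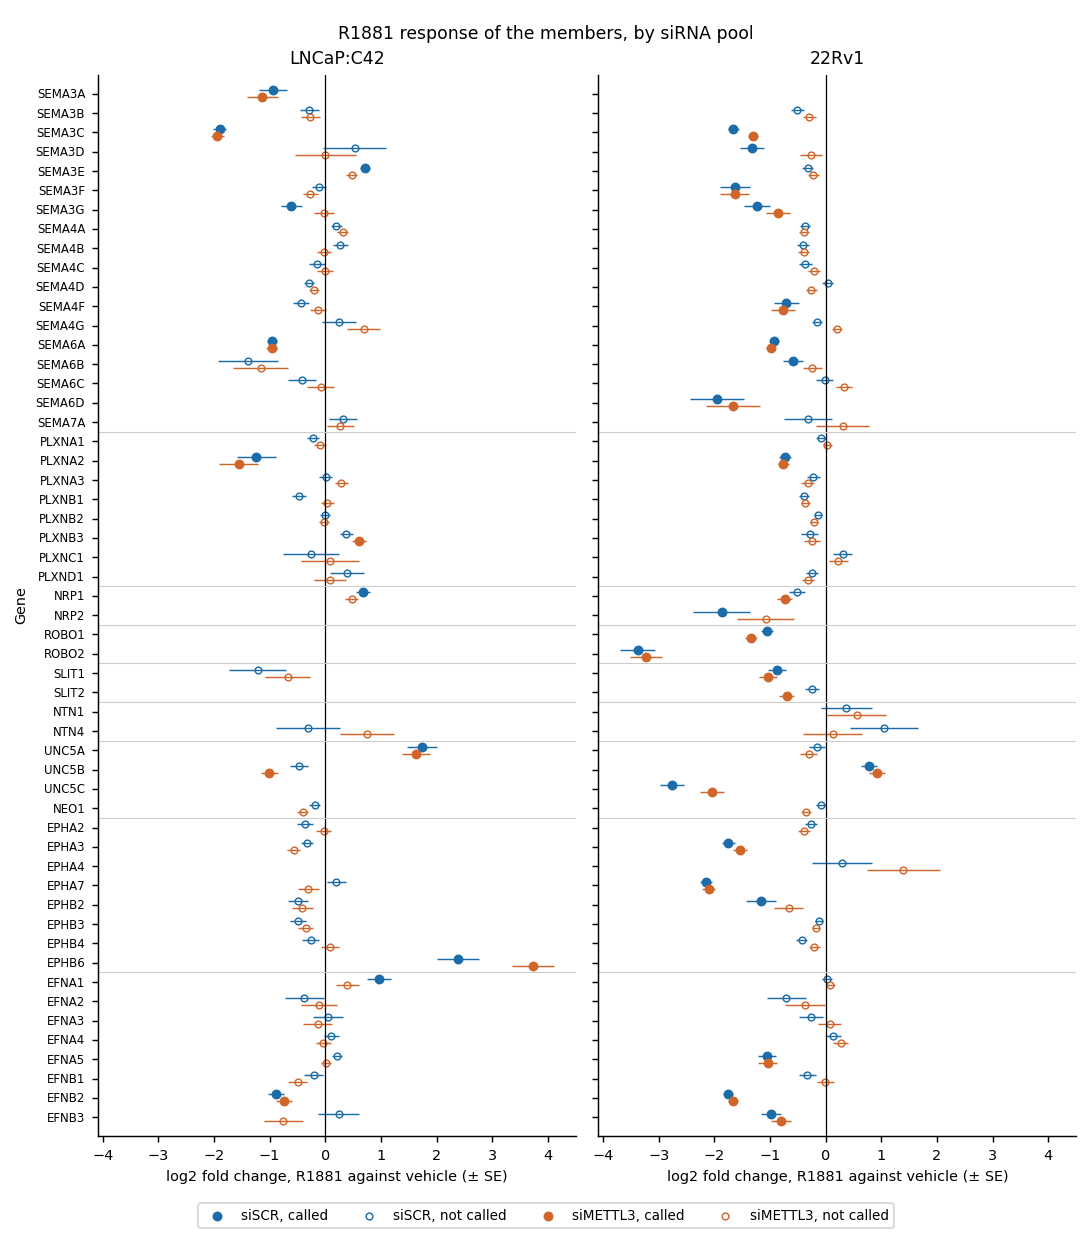
Log2 fold change with R1881 (x axis, ± SE, edgeR) of the 54 members tested in at least 1 line (y axis, by family), in LNCaP:C42 on the left and 22Rv1 on the right, with siSCR in blue and siMETTL3 in orange. Filled points were called at an adjusted p under 0.05 and at least 1.5-fold, and those of SEMA3C, SEMA6A, PLXNA2 and EFNB2 lie left of 0 in both panels under both pools.

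SEMA3C, SEMA6A, PLXNA2 and EFNB2 were the 4 members reduced by R1881 in both lines and under both siRNA pools. They lie on different chromosomes (GRCh38, Ensembl 83): SEMA3C at chr7:80742538-80922359, SEMA6A at chr5:116443616-116574934, PLXNA2 at chr1:208022242-208244320 and EFNB2 at chr13:106489731-106535114, all on the minus strand. SEMA3C, a secreted semaphorin, was the most reduced of them in LNCaP:C42 and well expressed in both lines. Its siSCR libraries were at 161, 140.0 and 169 CPM with vehicle and 39.7, 43.9 and 43.03 CPM with R1881 in LNCaP:C42 (log2 fold change -1.90 ± 0.12, adjusted p = 9.45e-09). The corresponding 22Rv1 libraries were at 102, 98.4 and 122 CPM and 32.3, 33.5 and 36.6 CPM (log2 fold change -1.66 ± 0.09, adjusted p = 4.69e-12). Every R1881 library thus lay well under every vehicle library. With siMETTL3 the values were 141, 106 and 112 CPM and 32.3, 30.1 and 30.01 CPM in LNCaP:C42 (log2 fold change -1.94 ± 0.12, adjusted p = 1.01e-08), and 123, 109.6 and 118 CPM and 45.6, 52.7 and 44.9 CPM in 22Rv1 (log2 fold change -1.31 ± 0.09, adjusted p = 1.6e-10).

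SEMA6A, a transmembrane semaphorin that binds A-class plexins including PLXNA2, fell by close to the same amount in all 4 comparisons. In LNCaP:C42 it was at 235, 218 and 226 CPM with vehicle and 119.8, 119 and 114 CPM with R1881 (log2 fold change -0.95 ± 0.09, adjusted p = 2.3e-06), and in 22Rv1 at 175, 157 and 159 CPM and 82.1, 96.5 and 81.5 CPM (log2 fold change -0.93 ± 0.08, adjusted p = 9.47e-09). With siMETTL3 its log2 fold changes were -0.96 ± 0.10 (adjusted p = 2.7e-06) and -0.99 ± 0.08 (adjusted p = 3.61e-09). The receptor PLXNA2 was far lower in LNCaP:C42, at 2.43, 2.20 and 1.74 CPM with vehicle and 1.30, 0.905 and 0.528 CPM with R1881 (log2 fold change -1.24 ± 0.35, adjusted p = 0.0182), than in 22Rv1, at 51.2, 40.2 and 40.4 CPM and 25.9, 24.5 and 28.9 CPM (log2 fold change -0.74 ± 0.11, adjusted p = 1.82e-05). R1881 and vehicle libraries of PLXNA2 did not overlap in either line, and with siMETTL3 its log2 fold changes were -1.55 ± 0.35 (adjusted p = 0.00579) and -0.76 ± 0.11 (adjusted p = 9.64e-06). The LNCaP:C42 siSCR call of PLXNA2 was lost without siSCR vehicle library 1 or 2 or R1881 library 3 (adjusted p = 0.0705, 0.0526 and 0.0902) and kept without the libraries that stood apart (-1.70, adjusted p = 0.00259).

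EFNB2, the transmembrane ephrin that marks arteries and binds EPHB4, was at 43.7, 36.4 and 40.2 CPM with vehicle and 19.4, 24.2 and 22.2 CPM with R1881 in LNCaP:C42 (log2 fold change -0.88 ± 0.14, adjusted p = 0.000335). In 22Rv1 it was at 77.4, 65.7 and 78.03 CPM and 22.5, 22.3 and 21.1 CPM (log2 fold change -1.75 ± 0.09, adjusted p = 1.83e-12). The vehicle levels of the lines differed while their R1881 levels overlapped, and the response was larger in 22Rv1 (difference -0.87 on the log2 scale, adjusted p = 0.000564). With siMETTL3 the log2 fold changes of EFNB2 were -0.75 ± 0.15 (adjusted p = 0.00201) and -1.67 ± 0.09 (adjusted p = 3.97e-12). SEMA3G, a secreted semaphorin, was reduced with siSCR in both lines, with log2 fold changes of -0.61 ± 0.19 (adjusted p = 0.0265) in LNCaP:C42 and -1.24 ± 0.23 (adjusted p = 0.00024) in 22Rv1, and with siMETTL3 in 22Rv1, with -0.86 ± 0.22 (adjusted p = 0.00371). Its LNCaP:C42 siSCR call was lost without siSCR vehicle library 1 or 2 or R1881 library 2 or 3 (adjusted p = 0.0672 to 0.111), and with siMETTL3 its value there was -0.03 ± 0.18 (adjusted p = 0.949).

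**Figure D3:**
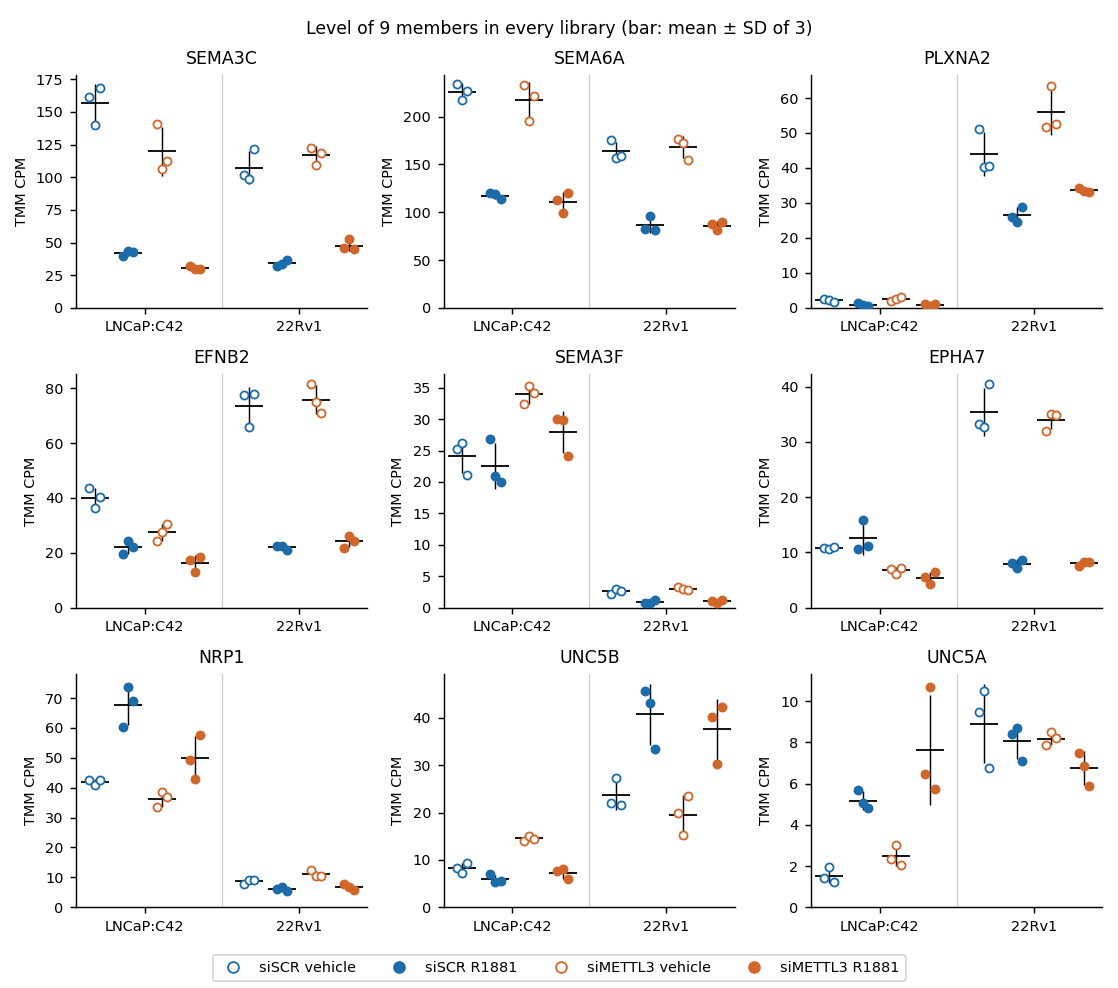
CPM (y axis, one scale per panel) of 9 members in each of the 24 libraries, with vehicle as open and R1881 as filled points, siSCR in blue and siMETTL3 in orange, and the mean ± SD of 3 libraries in black. The R1881 points of SEMA3C, SEMA6A, PLXNA2 and EFNB2 lie under the vehicle points in each of the 4 pairs of groups, and those of UNC5B lie above them in 22Rv1.

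The 250 bases upstream of the RefSeq start are shown for 3 of these genes, which were reduced in both lines, and for EPHB6, which was up-regulated in LNCaP:C42, to set their sequence beside the response (GRCh38.p14, RefSeq promoter table, written 5′ to 3′ on the strand of the gene). Capitals mark matches on either strand to the steroid hormone response hexamer AGAACA or the GC box GGGCGG. The windows were chr7:80922390-80922639 (minus strand) for SEMA3C, chr1:208244385-208244634 (minus) for PLXNA2, chr13:106535663-106535912 (minus) for EFNB2 and chr7:142862506-142862755 (plus) for EPHB6. No entry was matched for SEMA6A.
SEMA3C: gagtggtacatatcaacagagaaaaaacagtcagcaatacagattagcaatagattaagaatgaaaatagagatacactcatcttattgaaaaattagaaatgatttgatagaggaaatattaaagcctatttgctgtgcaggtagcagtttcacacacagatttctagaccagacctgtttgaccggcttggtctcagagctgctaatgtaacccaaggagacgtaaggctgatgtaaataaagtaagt
PLXNA2: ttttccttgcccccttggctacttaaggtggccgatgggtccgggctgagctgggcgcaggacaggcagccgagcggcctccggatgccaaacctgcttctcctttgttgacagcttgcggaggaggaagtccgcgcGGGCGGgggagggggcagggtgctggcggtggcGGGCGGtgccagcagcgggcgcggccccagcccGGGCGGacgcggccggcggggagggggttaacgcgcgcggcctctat
EFNB2: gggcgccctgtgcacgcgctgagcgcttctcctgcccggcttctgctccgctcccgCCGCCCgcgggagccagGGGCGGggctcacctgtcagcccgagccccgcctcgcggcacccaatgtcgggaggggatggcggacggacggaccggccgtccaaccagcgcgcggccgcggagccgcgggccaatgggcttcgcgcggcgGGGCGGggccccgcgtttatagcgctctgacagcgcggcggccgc
EPHB6: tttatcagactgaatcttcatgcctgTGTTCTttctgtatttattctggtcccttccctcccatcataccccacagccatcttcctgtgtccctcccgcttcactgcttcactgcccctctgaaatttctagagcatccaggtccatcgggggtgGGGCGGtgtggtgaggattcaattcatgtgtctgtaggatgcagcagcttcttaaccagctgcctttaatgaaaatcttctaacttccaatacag

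The windows were unlike one another. That of SEMA3C was AT-rich (36.4% G and C, 2 CpG dinucleotides) and held neither motif, while those of PLXNA2 and EFNB2 were CpG-dense (72.4% and 78.4% G and C, 27 and 40 CpG) with 3 GC boxes each. The EPHB6 window (48% G and C) held 1 GC box and 1 hexamer, 224 bases before the start, and this start lies inside the gene as annotated for the counts. Promoters were matched for 52 of the 60 members out of 15842 genes in the table. A hexamer was present in 1 of the 52 (1.92%, EPHB6) and in 9.43% of all promoters, and the full palindromic element, AGAACA and TGTTCT separated by 3 bases, in 0 of 15842. GC boxes were present in 36 of 52 members (69.2%) and 56.0% of all promoters, the E-box CACGTG in 3 (5.77%) and 7.84%, and the forkhead motif TGTTTAC in 0 and 2.25%. The median G and C content was 66.0% over the members and 62.4% over all. A letter match in this window is not a binding site, and its absence says nothing of binding.

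Semaphorins are the largest of these families. With siSCR, 8 of 17 tested were reduced in 22Rv1 (9.64% of all genes) and 4 of 17 in LNCaP:C42 (7.72% of all genes), where 1 was up-regulated, and with siMETTL3 6 and 3 of 17 were reduced (9.29% and 5.54% of all genes). SEMA3F, a secreted semaphorin that acts through NRP2, was at 2.18, 3.000 and 2.67 CPM with vehicle and 0.700, 0.668 and 1.17 CPM with R1881 in 22Rv1 (log2 fold change -1.62 ± 0.27, adjusted p = 8.04e-05). The log2 fold change was -1.63 ± 0.26 with siMETTL3, and the libraries did not overlap under either pool. In LNCaP:C42, where SEMA3F was about an order of magnitude higher, its libraries ran from 21.1 to 26.2 CPM with vehicle and 20.1 to 26.8 CPM with R1881 (log2 fold change -0.11 ± 0.13, adjusted p = 0.59).

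SEMA3A was reduced in LNCaP:C42, the line in which it passed the filter on low counts. It was at 3.87, 4.83 and 5.96 CPM with vehicle and 1.84, 2.78 and 3.06 CPM with R1881 with siSCR (log2 fold change -0.94 ± 0.25, adjusted p = 0.013), and at 3.32, 3.24 and 3.02 CPM and 1.57, 1.82 and 0.922 CPM with siMETTL3 (log2 fold change -1.13 ± 0.28, adjusted p = 0.0103). The siSCR call was lost without siSCR vehicle library 3 or R1881 library 1 (adjusted p = 0.0620 and 0.0511) and without all libraries that stood apart (-0.56, adjusted p = 0.0985). Its neighbour on chromosome 7, SEMA3E, which signals through PLXND1, was the semaphorin that moved the other way. SEMA3E was at 72.9, 82.6 and 78.4 CPM with vehicle and 123, 136 and 128 CPM with R1881 in LNCaP:C42 (log2 fold change 0.72 ± 0.10, adjusted p = 5.36e-05), and all R1881 libraries were above all vehicle libraries. In 22Rv1 its log2 fold change was -0.32 ± 0.10 (adjusted p = 0.0172), under 1.5-fold, and the responses of the lines differed by -1.04 (adjusted p = 3.53e-06).

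SEMA3D was reduced in 22Rv1 with siSCR, from 3.02, 3.27 and 3.33 CPM to 1.24, 1.28 and 1.33 CPM (log2 fold change -1.32 ± 0.21, adjusted p = 5.57e-05). With siMETTL3 the libraries overlapped, at 3.10, 2.52 and 3.13 CPM and 2.07, 2.48 and 2.83 CPM (log2 fold change -0.26 ± 0.20, adjusted p = 0.342). SEMA6D was at 1.04, 1.07 and 0.873 CPM with vehicle and 0.215, 0.390 and 0.160 CPM with R1881 in 22Rv1 (log2 fold change -1.95 ± 0.48, adjusted p = 0.00339). These R1881 libraries were under the filter on low counts, which fixes the direction of that change. With siMETTL3 the log2 fold change of SEMA6D was -1.67 ± 0.49, a call lost without siMETTL3 vehicle library 2 or R1881 library 2 (adjusted p = 0.0659 and 0.0749). SEMA4F and SEMA6B were reduced in 22Rv1 by amounts near the threshold. The log2 fold change of SEMA4F was -0.71 ± 0.22 (adjusted p = 0.0181) with siSCR and -0.77 ± 0.22 (adjusted p = 0.0109) with siMETTL3, and that of SEMA6B was -0.59 ± 0.18 (adjusted p = 0.0165) with siSCR. SEMA4F lost its siSCR call without siSCR vehicle library 1 or 2 or R1881 library 3 (adjusted p = 0.0707, 0.0867 and 0.127) and its siMETTL3 call without R1881 library 2 (0.0686). SEMA6B lost its call without siSCR vehicle library 1 or R1881 library 1 or 2 (log2 fold changes -0.49, -0.58 and -0.53). SEMA3B, SEMA4A, SEMA4B, SEMA4C, SEMA4D, SEMA4G, SEMA6C and SEMA7A were tested in both lines and called in none of the 4 comparisons. Among them SEMA4A showed how a change under the fold limit could still be resolved, at 39.6, 35.7 and 34.8 CPM with vehicle and 28.5, 28.1 and 28.9 CPM with R1881 in 22Rv1 (log2 fold change -0.37 ± 0.09, adjusted p = 0.002).

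Of 8 plexins, the receptors for semaphorins, 1 was called with siSCR in each line (12.5%), near the share of all genes (15.1% in LNCaP:C42 and 13.8% in 22Rv1). It was PLXNA2 in both. PLXNB2, the most abundant, was at 294 to 331 CPM with vehicle and 293 to 347 CPM with R1881 in LNCaP:C42 (adjusted p = 0.999), and the ranges overlapped in 22Rv1 too (log2 fold change -0.14, adjusted p = 0.16). PLXNB3 was up-regulated in LNCaP:C42 with siMETTL3, from 70.8, 82.3 and 79.6 CPM to 122, 122 and 107 CPM (log2 fold change 0.61 ± 0.12, adjusted p = 0.00191), and was at 0.38 ± 0.12 (adjusted p = 0.0283) with siSCR. Leaving out siMETTL3 R1881 library 1 or 2 or vehicle library 1 put the PLXNB3 change under 1.5-fold (0.57, 0.57 and 0.54). PLXNA1, PLXNA3, PLXNB1, PLXNC1 and PLXND1 were called in no R1881 comparison.

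The neuropilin NRP1 moved in opposite directions in the lines. In LNCaP:C42 with siSCR it was at 42.6, 40.9 and 42.7 CPM with vehicle and 60.4, 73.9 and 69.2 CPM with R1881 (log2 fold change 0.68 ± 0.12, adjusted p = 0.000655). In 22Rv1 with siMETTL3 it was at 12.5, 10.4 and 10.4 CPM and 7.92, 6.69 and 5.66 CPM (log2 fold change -0.74 ± 0.14, adjusted p = 0.00028). The R1881 libraries were all higher in the first and all lower in the second. The remaining values were 0.48 ± 0.12 (adjusted p = 0.0129) in LNCaP:C42 with siMETTL3 and -0.52 ± 0.14 (adjusted p = 0.00766) in 22Rv1 with siSCR, both under 1.5-fold, and the siSCR responses of the lines differed by -1.20 on the log2 scale (adjusted p = 2.58e-05). NRP2, tested in 22Rv1 alone, was at 1.14, 2.62 and 1.42 CPM with vehicle and 0.862, 0.390 and 0.160 CPM with R1881 (log2 fold change -1.87 ± 0.51, adjusted p = 0.0068). The R1881 values rest on 26 counts in all. NRP2 passed the filter on low counts through its vehicle libraries and not through these, which favours the direction of this change. Its libraries were uneven, the call was lost without siSCR vehicle library 2 (-1.44, adjusted p = 0.0612), and with siMETTL3 the value was -1.08 ± 0.51 (adjusted p = 0.115).

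Both listed Robo receptors were reduced in 22Rv1, and ROBO2 had the largest androgen response of all members there. It fell from 3.48, 2.89 and 3.93 CPM with vehicle to 0.377, 0.334 and 0.266 CPM with R1881 with siSCR (log2 fold change -3.38 ± 0.32, adjusted p = 2.95e-08). With siMETTL3 it fell from 5.34, 4.74 and 3.39 CPM to 0.609, 0.289 and 0.554 CPM (log2 fold change -3.22 ± 0.29, adjusted p = 1.36e-08). The R1881 values rest on 18 counts in all with siSCR, and none of them came near a vehicle value. ROBO2 passed the filter on low counts only through its vehicle libraries, which fixes the direction of its change. ROBO1, its neighbour on chromosome 3, went from 32.3, 31.9 and 35.2 CPM to 16.4, 13.97 and 17.4 CPM (log2 fold change -1.06 ± 0.11, adjusted p = 9.71e-08), and its log2 fold change was -1.34 ± 0.11 with siMETTL3.

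Among the ligands, SLIT1 was reduced under both pools in 22Rv1, from 16.2, 16.4 and 12.2 CPM to 10.4, 6.85 and 7.23 CPM with siSCR (log2 fold change -0.88 ± 0.15, adjusted p = 0.000143, and -1.04 ± 0.15 with siMETTL3). SLIT2 was called with siMETTL3, from 10.5, 13.3 and 10.4 CPM to 7.07, 7.56 and 6.88 CPM (log2 fold change -0.70 ± 0.14, adjusted p = 0.000368), and was at -0.25 ± 0.13 (adjusted p = 0.164) with siSCR. Without siMETTL3 vehicle library 2 the SLIT2 change was -0.56, under 1.5-fold. The test of the difference between the pools gave -0.45 ± 0.19 (adjusted p = 0.809) for SLIT2, so a different response was not shown. Among the listed Slit and Robo genes, only SLIT1 was tested in LNCaP:C42. With siSCR it was there at 0.483 to 0.718 CPM with vehicle and 0.178 to 0.317 CPM with R1881. Its log2 fold change was -1.21 ± 0.51 (adjusted p = 0.0972).

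The UNC5 receptors, which mediate repulsion by netrin and can trigger cell death in its absence, took 3 different courses. UNC5C was strongly reduced in 22Rv1, from 5.83, 5.25 and 6.22 CPM to 0.700, 0.835 and 1.01 CPM with siSCR (log2 fold change -2.76 ± 0.22, adjusted p = 2.19e-09), and its log2 fold change was -2.05 ± 0.22 with siMETTL3. UNC5B was the only member up-regulated by R1881 in 22Rv1, from 22.1, 27.3 and 21.6 CPM to 45.6, 43.2 and 33.5 CPM with siSCR (log2 fold change 0.78 ± 0.15, adjusted p = 0.00027) and from 19.8, 15.4 and 23.6 CPM to 40.1, 30.2 and 42.4 CPM with siMETTL3 (log2 fold change 0.92 ± 0.15, adjusted p = 4.63e-05). In LNCaP:C42 UNC5B went the other way. It fell with siMETTL3 from 14.03, 15.1 and 14.5 CPM to 7.70, 8.002 and 5.87 CPM (log2 fold change -1.002 ± 0.16, adjusted p = 0.000309) and was at -0.47 ± 0.16 (adjusted p = 0.0458) with siSCR, under 1.5-fold. The siSCR responses of UNC5B in the lines differed by 1.25 (adjusted p = 0.000572).

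UNC5A was up-regulated in LNCaP:C42 and not called in 22Rv1. Its libraries were at 1.44, 1.93 and 1.22 CPM with vehicle and 5.69, 5.04 and 4.80 CPM with R1881 with siSCR (log2 fold change 1.74 ± 0.27, adjusted p = 0.000216), and at 2.36, 3.02 and 2.07 CPM and 6.47, 10.7 and 5.76 CPM with siMETTL3 (log2 fold change 1.63 ± 0.25, adjusted p = 0.000249). In 22Rv1 the value was -0.16 ± 0.15 (adjusted p = 0.466), so R1881 brought the LNCaP:C42 level closer to that of 22Rv1, from a log2 difference of 2.53 to 0.64. The second of these fell short of 1.5-fold without LNCaP:C42 R1881 library 3 (0.57). Neogenin was called in no R1881 comparison (log2 fold changes -0.19, -0.41, -0.08 and -0.35), and neither was NTN1 or NTN4, at under 1 CPM in every library.

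The R1881 responses of the lines differed for 2 of the 8 listed Eph receptors, EPHA7 and EPHA3. In 22Rv1, EPHA7, which binds A-class ephrins, fell from 33.2, 32.6 and 40.4 CPM to 8.13, 7.12 and 8.62 CPM with siSCR (log2 fold change -2.16 ± 0.11, adjusted p = 1.23e-12) and from 32.01, 35.01 and 34.9 CPM to 7.55, 8.19 and 8.32 CPM with siMETTL3 (log2 fold change -2.10 ± 0.11, adjusted p = 2.17e-12). In LNCaP:C42 its siSCR ranges overlapped, at 10.7 to 10.9 CPM and 10.6 to 15.9 CPM (log2 fold change 0.20 ± 0.18, adjusted p = 0.447). EPHA3, a receptor for EFNA5, fell from 42.96, 40.7 and 49.2 CPM to 10.6, 13.3 and 15.7 CPM in 22Rv1 (log2 fold change -1.75 ± 0.12, adjusted p = 2.13e-10), with a log2 fold change of -1.54 ± 0.12 with siMETTL3. In LNCaP:C42 the EPHA3 libraries were separate but the change was under 1.5-fold, at -0.33 ± 0.11 (adjusted p = 0.044) with siSCR and -0.57 ± 0.11 (adjusted p = 0.00226) with siMETTL3.

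EPHB6, an Eph receptor whose kinase is inactive, was the most up-regulated member in LNCaP:C42. It was at 0.497, 0.215 and 0.405 CPM with vehicle and 2.25, 1.81 and 1.90 CPM with R1881 with siSCR (log2 fold change 2.39 ± 0.38, adjusted p = 0.000242), and at 0.0638, 0.335 and 0.392 CPM and 3.21, 3.69 and 4.09 CPM with siMETTL3 (log2 fold change 3.74 ± 0.38, adjusted p = 3.6e-06). The vehicle levels were near the limit of 3 counts. EPHB6 thus passed the filter on low counts only through its R1881 libraries, which fixes the direction of its change. In 22Rv1 the gene had 1 count with siSCR and vehicle and 0 with siSCR and R1881. EPHB2 was reduced in 22Rv1 with siSCR (log2 fold change -1.16 ± 0.27, adjusted p = 0.00232) and was at -0.67 ± 0.26 (adjusted p = 0.057) with siMETTL3. The abundant EPHB3 changed little, at 762, 699 and 627 CPM with vehicle and 649, 651 and 637 CPM with R1881 in 22Rv1 (log2 fold change -0.11 ± 0.07, adjusted p = 0.239). EPHA2, EPHA4 and EPHB4 were not called in any R1881 comparison.

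Of the ephrins, EFNA5 and EFNB3 joined EFNB2 among the genes reduced in 22Rv1. EFNA5 was at 5.83, 6.16 and 6.22 CPM with vehicle and 3.02, 2.73 and 3.03 CPM with R1881 (log2 fold change -1.06 ± 0.17, adjusted p = 4.51e-05, and -1.04 ± 0.17 with siMETTL3), so that EFNA5 and its receptor EPHA3 fell together in that line. In LNCaP:C42, where EFNA5 was much higher, its value was 0.22 ± 0.09 (adjusted p = 0.0966). EFNB3 went from 18.9, 15.2 and 17.6 CPM to 11.3, 6.07 and 8.78 CPM in 22Rv1 (log2 fold change -0.99 ± 0.18, adjusted p = 0.000183, and -0.80 ± 0.18 with siMETTL3). EFNA1 was up-regulated in LNCaP:C42 with siSCR, from 112, 133 and 94.00 CPM to 289, 161 and 216 CPM (log2 fold change 0.96 ± 0.22, adjusted p = 0.00402). Its R1881 libraries were uneven, and the change was 0.64 (adjusted p = 0.0107) without the libraries that stood apart. With siMETTL3 the EFNA1 ranges overlapped, at 178 to 256 CPM and 219.7 to 382 CPM (log2 fold change 0.40 ± 0.21, adjusted p = 0.232). EFNA2, EFNA3, EFNA4 and EFNB1 were called in none.

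The responses of the lines were compared directly in a fit over all 24 libraries. With siSCR, the R1881 response differed between the lines for 16 of 54 members (adjusted p under 0.05, no fold limit), against 16.8% of all genes. In 15 of the 16 the response was lower in 22Rv1, against 9.02% of all genes lower and 7.78% higher, and UNC5B was the exception. With library size alone as the scaling, 3 were higher and 14 lower. The largest differences among genes expressed in both lines were those of EPHA7 (-2.36 ± 0.20, adjusted p = 2.12e-09), UNC5A (-1.90 ± 0.31, adjusted p = 8.28e-05), SEMA3D (-1.86 ± 0.54, adjusted p = 0.0182), SEMA3F (-1.52 ± 0.28, adjusted p = 0.000292) and EPHA3 (-1.43 ± 0.17, adjusted p = 6.82e-07). SEMA3C (0.24, adjusted p = 0.312), SEMA6A (0.03, 0.94) and PLXNA2 (0.504, 0.324) were not called. Without the libraries that stood apart 15 members were called (21.8% of all genes), and SEMA3D (-1.61, adjusted p = 0.119) and EFNB3 (-0.48, adjusted p = 0.408) were no longer among them. SEMA3D also lost its call without LNCaP:C42 siSCR vehicle library 1 (-1.497, adjusted p = 0.0535) or R1881 library 1 (-1.33, adjusted p = 0.157). EFNB3 lost its call without LNCaP:C42 siSCR vehicle library 1 or 3 or R1881 library 1, or without 22Rv1 siSCR vehicle library 1 or R1881 library 2 or 3 (-0.68 to -1.30, adjusted p = 0.0532 to 0.293).

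**Figure D4:**
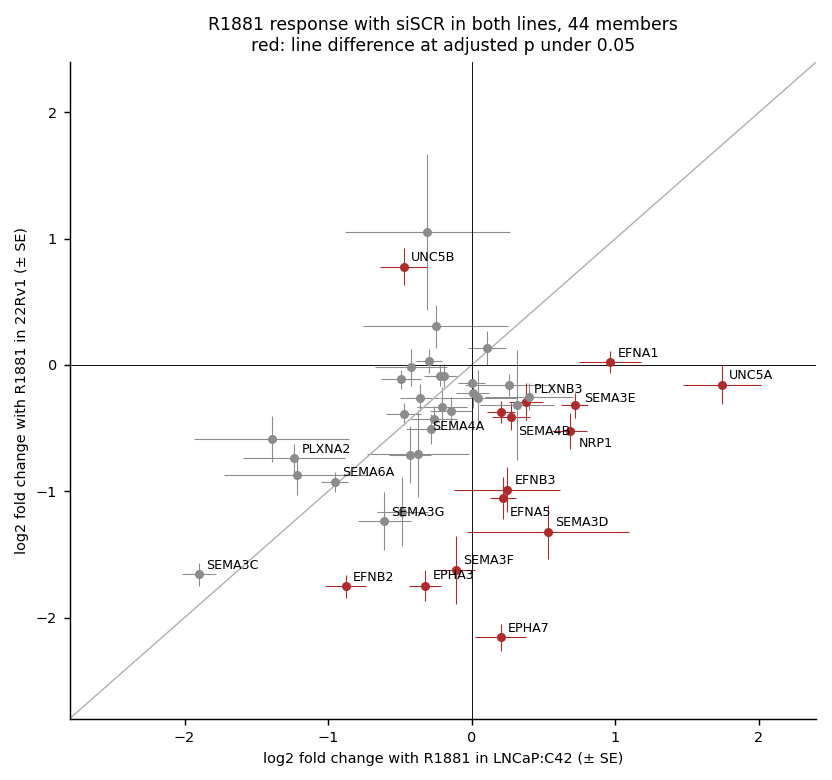
Log2 fold change with R1881 under siSCR in LNCaP:C42 (x axis, ± SE) and 22Rv1 (y axis, ± SE) for the 44 members tested in both lines, with equal responses on the diagonal and line differences at an adjusted p under 0.05 in red. SEMA3C, SEMA6A, PLXNA2 and EFNB2 lie at lower left, NRP1 and SEMA3E at lower right, and UNC5B at upper left.

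With all libraries, knockdown of METTL3 changed few of these genes. With vehicle, siMETTL3 altered 2 of 46 members in LNCaP:C42 (both up-regulated) against 1.2% of all genes (0.828% up-regulated), and 0 of 52 in 22Rv1 against 0.202%, where edgeR gave 7 members with an unadjusted p under 0.05 and DESeq2 called 0. With R1881 it altered 1 of 46 in LNCaP:C42 (reduced) against 0.7% (0.42% reduced) and 2 of 52 in 22Rv1 (both up-regulated) against 3.29% (2.3% up-regulated). The comparisons with vehicle share their siSCR libraries with the R1881 comparisons above.

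In 22Rv1 with R1881 the altered genes were both semaphorins. SEMA4G was at 29.6, 28.6 and 29.2 CPM with siSCR and 50.7, 47.95 and 44.7 CPM with siMETTL3 (log2 fold change 0.70 ± 0.09, adjusted p = 8.04e-05), and SEMA3D was at 1.24, 1.28 and 1.33 CPM and 2.07, 2.48 and 2.83 CPM (log2 fold change 0.92 ± 0.22, adjusted p = 0.00991). Neither gene's groups overlapped, and both calls were kept without any 1 of the 6 libraries. SEMA4G shares 27.4% of its exonic bases with MRPL43 and an unnamed gene together, and a fragment that falls in more than 1 gene is not counted. With vehicle the SEMA4G change was 0.34 ± 0.09 (adjusted p = 0.0886) and that of SEMA3D -0.14 ± 0.19 (adjusted p = 0.765).

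In LNCaP:C42 with vehicle, UNC5B was at 8.23, 7.14 and 9.26 CPM with siSCR and 14.03, 15.1 and 14.5 CPM with siMETTL3 (log2 fold change 0.81 ± 0.16, adjusted p = 0.02), and EFNA1 at 112, 133 and 94.00 CPM and 256, 246 and 178 CPM (log2 fold change 0.99 ± 0.22, adjusted p = 0.0321). With R1881, EPHA7 was at 10.6, 15.9 and 11.1 CPM with siSCR and 5.60, 4.20 and 6.39 CPM with siMETTL3 (log2 fold change -1.21 ± 0.19, adjusted p = 0.0109). The groups did not overlap for these 3 genes, but the calls depended on single libraries. UNC5B and EFNA1 were each lost without siSCR vehicle library 1, 2 or 3 or siMETTL3 vehicle library 2 (adjusted p = 0.0720 to 0.112 and 0.0523 to 0.193), and EPHA7 without siSCR R1881 library 2 or siMETTL3 R1881 library 1 or 2 (0.0620 to 0.0921). EPHA7 with vehicle was at -0.70 ± 0.18 (adjusted p = 0.0723), its siSCR libraries at 10.8, 10.7 and 10.9 CPM and its siMETTL3 libraries at 7.01, 6.03 and 7.17 CPM.

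The LNCaP:C42 knockdown counts moved most when the libraries that stood apart were left out. With vehicle the count became 4 of 47 (UNC5B, EPHA7, EFNA1 and EFNA3, against 2.25% of all genes) and with R1881 12 of 47 (against 11.7% of all genes). The share over all genes rose too, from 1.2% and 0.7% with all libraries. The 12 were SEMA3A (-1.04), SEMA3B (0.63), SEMA3G (0.68), SEMA6B (1.65), SEMA6C (0.74), UNC5A (0.62), EPHA7 (-1.33), EPHB4 (0.63), EPHB6 (0.96), EFNA1 (0.63), EFNA2 (1.01) and EFNA3 (0.78), as log2 fold changes, all but SEMA3A and EPHA7 higher with siMETTL3. In 22Rv1 the counts stayed at 0 and 2 (0.776% and 4.36% of all genes). Mitochondrial genes took 7.08% of the counts of siSCR R1881 library 1 of LNCaP:C42 against 9.73% and 9.69% in its group, and their part in the result was not tested.

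**Figure D5:**
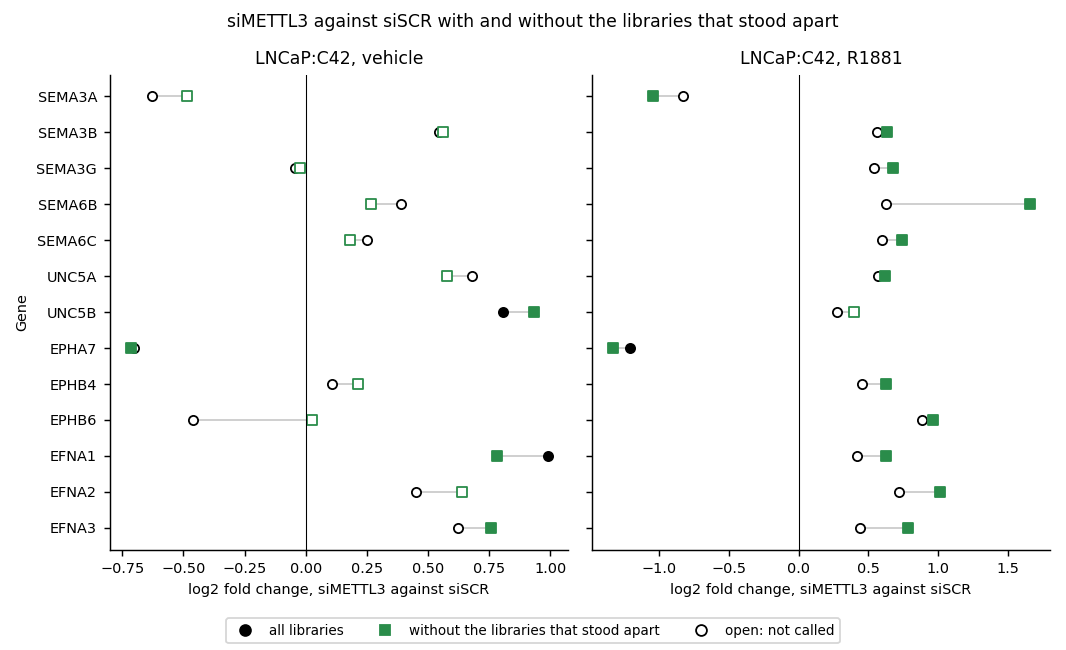
Log2 fold change with siMETTL3 against siSCR in LNCaP:C42 (x axis), with vehicle on the left and R1881 on the right, of the 13 members called in either comparison with or without the libraries that stood apart (y axis). Circles show the fit on all libraries and squares the fit without those, filled where the gene was called, and most squares are filled in the R1881 panel where most circles are open.

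Whether METTL3 depletion altered the androgen response was asked with the interaction of R1881 and siRNA pool. No member was called in LNCaP:C42 (4 at an unadjusted p under 0.05 with edgeR, DESeq2 0, 0% of all genes) or in 22Rv1 (7 at an unadjusted p under 0.05, DESeq2 0, 0.0168% of all genes). The 4 in LNCaP:C42 were SEMA3G (0.58 ± 0.26, adjusted p = 0.389), PLXNB1 (0.51 ± 0.17, adjusted p = 0.326), UNC5B (-0.53 ± 0.23, adjusted p = 0.384) and EPHB6 (1.35 ± 0.59, adjusted p = 0.385). The largest in 22Rv1 was SEMA3D, with 1.06 ± 0.29 (adjusted p = 0.802), the gene that fell with R1881 under siSCR and overlapped under siMETTL3. Genes called under one pool and not the other, such as EPHB2, NRP2, SEMA6B and SLIT2 in 22Rv1, were thus not shown to respond differently in the fits on all libraries. Without the libraries that stood apart 3 members were called in LNCaP:C42 (9.94% of all genes), PLXNA3 (0.39, adjusted p = 0.0484), PLXNB1 (0.42, adjusted p = 0.0303) and EPHB4 (0.42, adjusted p = 0.0104), and 0 in 22Rv1 (1.18%). The effect of siMETTL3 with vehicle differed between the lines for 2 of 54 members (0.458% of all genes, 0.0875% higher and 0.37% lower in 22Rv1), UNC5B (-1.10 ± 0.23, adjusted p = 0.0255) and ROBO1 (2.47 ± 0.56, adjusted p = 0.0423), and ROBO1 had at most 0.663 CPM in any LNCaP:C42 library. Both calls were lost without LNCaP:C42 siSCR vehicle library 1 or 2, siMETTL3 vehicle library 2, 22Rv1 siSCR vehicle library 2 or siMETTL3 vehicle library 1 or 2. That of UNC5B was also lost without LNCaP:C42 siSCR vehicle library 3 (adjusted p = 0.0520 to 0.111 over these), and that of ROBO1 without LNCaP:C42 siMETTL3 vehicle library 1 or 22Rv1 siSCR vehicle library 1 (0.0585 to 0.151).

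Several members are neighbours in the genome (GRCh38, positions from the count files). EFNA4, EFNA3 and EFNA1 lie in a row on chromosome 1 with gaps of 9.32 and 39.9 kb, and EFNA1 was the only one of the 3 that R1881 altered. SEMA3F and SEMA3B lie 78.5 kb apart on chromosome 3, and in 22Rv1 with siSCR SEMA3F fell while SEMA3B changed by -0.51 ± 0.12 (adjusted p = 0.00203). On chromosome 7 SEMA3E, SEMA3A and SEMA3D follow each other at 307 and 503 kb, and in LNCaP:C42 SEMA3E rose while SEMA3A fell. ROBO2 and ROBO1 are 947 kb apart and both fell in 22Rv1. Some counts are limited by overlap with other genes. EFNA3 shares 44.7% of its exonic bases with the read-through gene EFNA4-EFNA3, PLXNB3 20.4% with SRPK3 and EFNA4 14.96% with the same read-through gene, and since strand was not used in counting and shared fragments were dropped, levels of these genes are uncertain.

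Wider lists of guidance genes were followed in the same way. Of 22 other guidance ligands and receptors, 14 were tested in LNCaP:C42 and 19 in 22Rv1. In 22Rv1 R1881 altered 8 of 19 with siSCR (1 up-regulated and 7 reduced, against 13.8% of all genes) and 7 of 19 with siMETTL3 (all reduced, against 13.5%), led by the netrin G2 gene NTNG2 (-1.86 ± 0.23, adjusted p = 1.45e-06), EPHA8 (-1.64 ± 0.25, adjusted p = 2.5e-05) and the cell adhesion molecule DSCAM (-1.51 ± 0.21, adjusted p = 1.2e-05) with siSCR and by NTNG2 (-2.20), FLRT2 (-1.61) and EPHA5 (-1.09) with siMETTL3. EPHA5 kept its siMETTL3 call in 2 of the 6 fits that each left out 1 library. In LNCaP:C42 3 of 14 were altered under each pool (1 up-regulated and 2 reduced, against 15.1% and 10.6% of all genes), with the chemokine CXCL12 up-regulated (2.32 ± 0.40, adjusted p = 0.000547 with siSCR and 2.45 ± 0.40 with siMETTL3) and NTNG1 reduced (-1.98 and -2.25) in both. The third was EPHA10 with siSCR (-0.75) and RGMA with siMETTL3 (-0.95), kept in 1 and 0 of the 6 fits that each left out 1 library (adjusted p up to 0.178 and 0.161).

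Of 45 intracellular effectors, 40 were tested in LNCaP:C42 and 43 in 22Rv1. R1881 altered 8 of 40 with siSCR (3 up-regulated and 5 reduced, 20% against 15.1% of all genes) and 6 of 40 with siMETTL3 (2 and 4, against 10.6%) in LNCaP:C42. MICAL1, a flavoprotein that oxidises actin downstream of plexins, was up-regulated (3.68 ± 0.14, adjusted p = 2.98e-11 with siSCR and 3.25 ± 0.13 with siMETTL3), and the exchange factor VAV3 was reduced (-4.19 ± 0.44, adjusted p = 4.44e-06 with siSCR and -3.32 ± 0.48 with siMETTL3). With siMETTL3 CRMP1 was also reduced (-1.23). In 22Rv1 3 of 43 were altered with siSCR (2 up-regulated and 1 reduced, 6.98% against 13.8% of all genes) and 8 of 43 with siMETTL3 (2 and 6, 18.6% against 13.5%). ABLIM3 (1.34 and 0.93) and MICAL2 (0.96 and 0.85) were up-regulated and RND1 (-1.09 and -0.81) reduced under both pools. Knockdown altered RRAS alone in LNCaP:C42 with vehicle (0.97 ± 0.20, adjusted p = 0.0261), ROBO3 alone with R1881 (0.84 ± 0.17, adjusted p = 0.037), none in 22Rv1 with vehicle, and 4 of 19 and 4 of 43 in 22Rv1 with R1881 (against 3.29% of all genes).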

How the data were processed

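Per the labels, RNA for the 24 libraries came from the RNeasy Mini kit with DNase treatment (the study's methods name a GenElute kit), and libraries were sequenced on an Illumina instrument. Per the file headers and the submitters' processing notes, the authors trimmed reads (Trim Galore, cutadapt), aligned them with STAR to GRCh38 and deposited raw gene counts made by featureCounts 1.5.0-p1 with the Ensembl release 83 annotation, without strand and with no fragment counted for 2 genes. These counts were tested with edgeR 4.0.16 (R 4.3.3, limma 3.58.1): TMM scaling, filterByExpr (minimum count 10, total 15), quasi-likelihood test and Benjamini-Hochberg adjustment over all genes. The 12 libraries of a line entered 1 fit (8 residual degrees of freedom) and all 24 entered the comparisons of lines. Levels within a line or between lines were called at an adjusted p under 0.05 and at least 1.5-fold, interactions and differences of responses at an adjusted p under 0.05. CPM and RPKM are computed here with TMM scaling, and errors of log2 fold changes are standard errors from the F statistic. Intervals and floors of 3 counts cover counting error only (exact, 95%).

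The members, the 2 wider gene lists and the tests were chosen with earlier results of these data known. Every member is accounted for, and values per library are given for the members called within a line, up to the 8 largest changes in each R1881 comparison and 5 in each knockdown comparison at a mean of at least 1 CPM, and for the 10 largest differences between lines. Values per library of SEMA3E, SEMA4A, SEMA6D, SLIT1, SLIT2, EFNA5, EFNB3, UNC5B in 22Rv1, NRP1, PLXNB3, EPHA7 in LNCaP:C42 with vehicle and EPHB3 in 22Rv1 with R1881 were added after they were seen. DESeq2 1.42.0, other scalings, filters, fold limits, a replicate block, smaller fits and fits without single libraries were alternatives, and leaving out the 5 libraries that stood apart was chosen after seeing the data. Samples of the same replicate number did not deviate together in every pair, so the numbers were not taken as pairs. Promoter sequences came from RefSeq (GRCh38.p14). Splicing data and the inhibitor experiment of the study were not analysed here. Figures were drawn with matplotlib 3.10.9 (Python 3.11.15, numpy 2.4.6, pandas 2.3.3, scipy 1.17.1).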

Additional observations from a re-analysis of the deposited data

Results flagged for a closer look

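The R1881 response with siSCR differed between 22Rv1 and LNCaP:C42 for 16 members in a test of the difference itself (edgeR quasi-likelihood test over all 24 libraries, adjusted p under 0.05). All values are the log2 response in 22Rv1 minus that in LNCaP:C42. Among the semaphorins it was -1.86 for SEMA3D, -1.04 for SEMA3E, -1.52 for SEMA3F, -0.58 for SEMA4A, -0.68 for SEMA4B and -5.18 for SEMA6D. SEMA6D was near 0 counts in LNCaP:C42, so its fitted value depends on the prior count and is no measure of size. Among receptors the difference was -0.67 for PLXNB3, -1.20 for NRP1, -1.90 for UNC5A, 1.25 for UNC5B, -1.43 for EPHA3 and -2.36 for EPHA7. Among ephrins it was -0.95 for EFNA1, -1.28 for EFNA5, -0.87 for EFNB2 and -1.24 for EFNB3. NRP1 and UNC5B are the members that were called in both lines, under one siRNA pool or the other, with opposite directions.

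The effect of siMETTL3 with vehicle differed between the lines for ROBO1 (2.47) and UNC5B (-1.10). ROBO1 had few counts in LNCaP:C42, and both values lost their call without some single libraries.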

How the results depend on the processing

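Depth limits the least expressed members: 3 counts stood for 0.141 to 0.191 CPM, and 14 members in LNCaP:C42 and 8 in 22Rv1 did not pass the filter on low counts. Of 537 values of single named members under alternatives that kept all or most libraries, 530 kept direction and call, 7 lost the call and 0 reversed. Of 558 values with 1 library left out, 518 kept both, 40 lost the call and 0 reversed. Both tallies leave out called members beyond the 8 largest changes in each R1881 comparison and the 10 largest differences between lines. Calls of some of those left out, such as SEMA3G, SEMA4F and SEMA4C, were also lost without single libraries, as given above. Counts of called members that changed are given here, and the cause was not tested. With no fold limit the R1881 counts in LNCaP:C42 were 18 (siSCR) and 14 (siMETTL3), and the knockdown count in 22Rv1 with R1881 was 5. With the 1.5-fold limit inside the test, a stricter criterion by construction, R1881 altered 4 members in LNCaP:C42 with siSCR, 13 in 22Rv1 with siSCR and 11 with siMETTL3, and knockdown altered 0 in LNCaP:C42 with vehicle, 0 with R1881 and 0 in 22Rv1 with R1881. With no filter, knockdown with vehicle altered 5 members in LNCaP:C42, the interaction there 1 and the line difference of the knockdown effect 4. With at least 10 counts required in every library, which tests fewer genes, the lines differed in 27 members with vehicle and 25 with R1881, and the knockdown effect in 1. DESeq2 gave 3 members for knockdown with R1881 in LNCaP:C42 and 5 for the line difference of the knockdown effect. A fit of only the 6 libraries compared gave 2 for knockdown with R1881 in LNCaP:C42. Without the 5 libraries that stood apart, knockdown altered 4 members (vehicle) and 12 (R1881) in LNCaP:C42, the interaction there 3 and the line difference of the knockdown effect 4. The replicate block gave 1 member for the line difference of the knockdown effect, and in the other comparisons counts within 1.5 times of those reported. Same-numbered samples had a mean correlation of deviations of -0.014 in LNCaP:C42 (9 of 18 pairs over 0.1) and -0.005 in 22Rv1 (6 of 18). The METTL3 decrease in LNCaP:C42 had an edgeR adjusted p under 0.05 with vehicle (-0.61, adjusted p = 0.0127) and R1881 (-0.57, adjusted p = 0.0256, under 1.5-fold). It was above 0.05 with vehicle in the fit of 6 libraries (-0.61, adjusted p = 0.0540) and with R1881 under the replicate block (-0.57, adjusted p = 0.0706).

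Leaving out 1 library at a time, R1881 altered 9 to 14 members in LNCaP:C42 with siSCR and 8 to 10 with siMETTL3, and 19 to 22 and 18 to 20 in 22Rv1. Knockdown in LNCaP:C42 altered 0 to 4 members with vehicle (0 without siSCR library 1, 4 without siMETTL3 library 1) and 0 to 8 with R1881 (0 without siSCR library 2, 8 without siSCR library 1). The lines differed in 40 to 44 members with vehicle and 39 to 40 with R1881, in their R1881 response in 14 to 18 and in their knockdown effect in 0 to 4. METTL3 changed by -0.66 to -0.55 in LNCaP:C42 with vehicle and by -0.65 to -0.52 with R1881. Its adjusted p was above 0.05 without siSCR vehicle library 1 or 3 or siMETTL3 vehicle library 2 (up to 0.0982 with vehicle), and with R1881 without any 1 library other than siSCR library 1 (up to 0.162, edgeR).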
